A study of Arabidopsis thaliana with 41 samples.

Results

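Embryos of the Arabidopsis thaliana val1 mutant were compared with wild type embryos at 12 days of age by RNA-seq. The comparison rests on 6 of the 41 libraries of the series, 3 from val1 embryos and 3 from wild type embryos, chosen by genotype and age alone. The spread used in the tests was estimated from all 41 libraries. The whole series covers both genotypes at 7 ages from day 7 to day 17, with paired-end reads of 75 bases. Embryos were dissected from the seeds on ice and washed to remove endosperm, and no treatment was applied to either genotype. The allele of val1, the accession of the plants and the number of embryos pooled per library are not given in the labels. In each genotype the FPKM table used here holds replicates 1 and 3 and a column named as a replacement of replicate 1, while the labels list a replicate 2. A second deposited table names a replicate 2 in that place for wild type, but again a replacement for val1. Whether the replacement column is replicate 2 or a repeat of replicate 1 cannot be told from the labels. It is therefore called the unnumbered library, and the main counts are also given without it. Values are given below in the order replicate 1, unnumbered library, replicate 3. They are FPKM (fragments per kilobase of transcript, scaled to the number of mapped fragments), summed over the transcripts of a gene and scaled between libraries so that most genes agree in level.

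VAL1 encodes a repressor with a B3 DNA-binding domain, related to the B3 activators LEC2, FUS3 and ABI3 that drive seed maturation. VAL proteins bind the RY element, a short sequence shared by many seed gene promoters, and are known to recruit histone deacetylases and Polycomb complexes. They are best known for shutting off the maturation programme when a seed germinates. The embryo at this age is filling with storage protein and oil. Of the B3 activators named above, FUS3 and ABI3 transcripts were present in every day 12 library, and LEC2 lay below 1 FPKM.

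The 6 libraries held 22543372 to 36912911 reads, recovered from the steps in the deposited FPKM, against 8321306 to 51738641 over the series. Storage protein transcripts took 46.5 to 55.2% of the reads in val1 and 38.4 to 58.4% in wild type. Both unnumbered libraries held more reads antisense to annotated genes, 1.98% in val1 and 3.16% in wild type, than the numbered ones, which held 0.295 to 0.522%. The embryo markers NF-YB6, FUS3, ABI3, CRU3 and OLEO1 were present in every library, and LEC1 and LEC2 lay below 1 FPKM. Of 11 endosperm markers, PHE1, MEA, ZOU and MINI3 were listed at 0 in all 6 libraries and the others stayed below 1 FPKM except EPR1. EPR1, an extensin-like gene of the endosperm, had 35.3, 73.0 and 44.8 FPKM in val1 and 132, 170.3 and 73.7 FPKM in wild type (log2 difference -1.27 ± 0.57 (SE), adjusted p = 0.19). The libraries of the genotypes did not overlap in EPR1, and it made up nearly all of the summed endosperm level, 36.0 to 74.2 FPKM in val1 and 74.1 to 170.5 FPKM in wild type. The summed level of 10 seed coat markers was 5.72 to 7.17 FPKM in val1 and 5.32 to 9.44 FPKM in wild type, with TT12, TT2 and TT16 at 0.

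VAL1 itself had 4.89, 6.80 and 4.70 FPKM in the val1 libraries, against 16.5, 18.4 and 17.2 FPKM in the wild type libraries. All 3 val1 libraries lay below all 3 wild type libraries, and the transcript was reduced rather than absent (log2 difference -1.60 ± 0.19 (SE), adjusted p = 1.35e-07). Both of its assembled forms were lower. The form with the annotated exon structure had 1.19, 1.75 and 0.851 FPKM in val1 and 5.12, 5.82 and 6.49 FPKM in wild type. The paralog VAL2 had 9.98, 11.8 and 11.3 FPKM in val1 and 10.6, 10.0 and 7.87 FPKM in wild type (log2 difference 0.21 ± 0.16 (SE), adjusted p = 0.508), and VAL3 was below 1 FPKM in every day 12 library.

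At day 12, 996 of 18389 genes tested were higher in val1 and 570 were lower (limma across all genes, Benjamini-Hochberg adjusted p below 0.05), which is 5.42% and 3.1% of the genes and 8.52% in either direction. Without regard to the test, all 3 val1 libraries lay above all 3 wild type libraries for 14.2% of the genes and below them for 11.9%. A difference of at least 2-fold on the log2(FPKM + 0.5) scale, which understates changes of low genes, was seen for 401 of the higher genes and 198 of the lower ones. Of the 996 higher genes, 423 averaged below 1 FPKM in wild type, and 61 of them were listed at 0 in all 3 wild type libraries. Of the 570 lower genes, 221 averaged below 1 FPKM in val1, and 9 of them were listed at 0 in all 3 val1 libraries. The share of all genes tested below 1 FPKM was not counted. The median level of the higher genes was 4.30 FPKM in val1 and 1.58 FPKM in wild type, and that of the lower genes was 1.503 FPKM in val1 and 3.52 FPKM in wild type. The counts changed without the unnumbered libraries and in the second deposited quantification: 535 genes were higher and 348 lower without the unnumbered pair, and 563 and 226 in the second quantification. The second quantification names a wild type replicate 2 at day 12 in place of the unnumbered library, so its libraries may differ as well. The p-values measure the spread between libraries of the same genotype and age, pooled over all 14 groups of the series (27 residual degrees of freedom). From the 6 day 12 libraries alone, 602 genes were called higher and 380 lower. The series' design names both biological and technical replicates without saying which libraries are which, so the spread may be technical.

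Most of the largest increases were in genes that wild type embryos hardly expressed, given here as the 12 with the largest difference among those reaching 5 FPKM in val1 with no overlap between the genotypes. AT1G74140, a rhomboid-related intramembrane protease gene, had 20.4, 25.7 and 20.13 FPKM in val1 and 0, 0 and 0.169 FPKM in wild type (log2 difference 5.35 ± 0.18 (SE), adjusted p = 9.35e-21). AT1G02770, a gene of the DUF626 family of unknown function, had 54.3, 60.9 and 56.6 FPKM in val1 and 0.825, 1.44 and 0.958 FPKM in wild type (log2 difference 5.21 ± 0.23 (SE), adjusted p = 8.22e-18). Both genes were on in every val1 library and close to off in every wild type library, and both were called higher in val1 at all 7 ages. AT2G20470, a gene of the AGC kinase family that was also called at all 7 ages, had 12.2, 14.6 and 12.0 FPKM in val1 and 0, 0 and 0.0482 FPKM in wild type (log2 difference 4.70 ± 0.20 (SE), adjusted p = 8.22e-18).

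Another 3 of the 12 were listed at 0 in every wild type library, so no fold change is given for them. GLTP2, annotated as a glycolipid transfer protein, had 17.0, 16.0 and 13.8 FPKM in val1 (adjusted p = 8.22e-18). AT1G56100, of the invertase and pectin methylesterase inhibitor family, had 16.7, 18.7 and 18.96 FPKM (adjusted p = 1.89e-06). AT1G13609, a defensin-like gene, had 5.96, 13.8 and 21.4 FPKM (adjusted p = 4.69e-10), a wider spread than the other 2. In the second quantification the val1 difference of AT1G13609 was not called (adjusted p = 0.434).

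The remaining 6 included genes annotated with lipid, cytochrome P450 or unknown function. CYP81D6, a cytochrome P450, had 10.9, 12.1 and 15.6 FPKM in val1 and 0.0469, 0.0901 and 0.202 FPKM in wild type (log2 difference 4.44 ± 0.26 (SE), adjusted p = 1.01e-14). AT5G03820, a GDSL-like lipase, had 14.3, 12.9 and 13.7 FPKM in val1 and 0, 0 and 0.0573 FPKM in wild type (log2 difference 4.77 ± 0.50 (SE), adjusted p = 1.22e-08). AT1G04800, which encodes a glycine-rich protein, had 13.2, 17.36 and 18.0 FPKM in val1 and 0.112, 0.414 and 0.132 FPKM in wild type (log2 difference 4.55 ± 0.23 (SE), adjusted p = 2.47e-16). The other 3, AT1G47400, AT1G47395 and AT2G30766, are listed as unknown proteins in the annotation used here, which may not hold their function. They are described with the age course below.

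**Figure D1:**
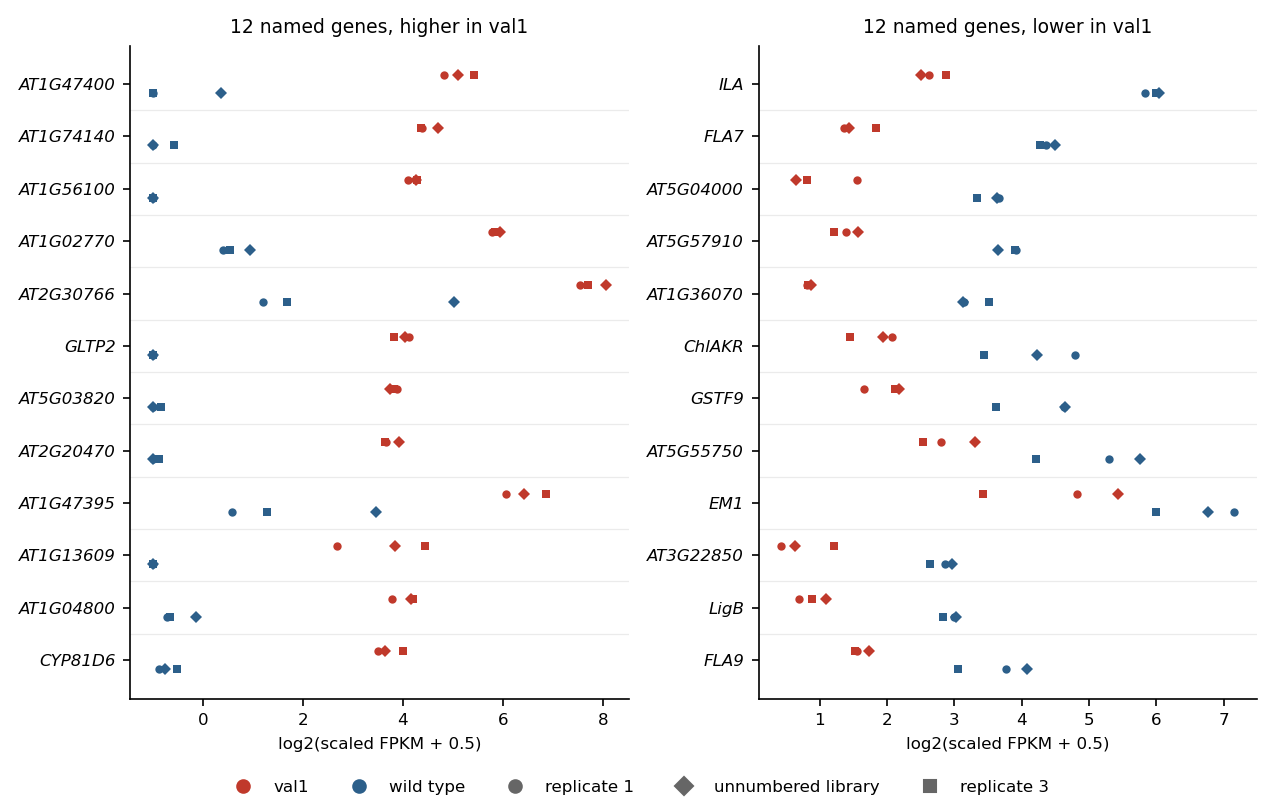
Level of the 12 genes named as higher and the 12 named as lower at day 12, as log2(scaled FPKM + 0.5) on the horizontal axis, with one point per library, val1 above wild type in each row and the marker shape giving the library. The genotypes do not overlap for any gene shown, which the choice of genes required, and the unnumbered wild type library lies above the other wild type libraries for AT2G30766 (32.2 FPKM) and AT1G47395 (10.5 FPKM).

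The genes with the largest decreases held moderate levels in wild type. FLA7, one of the fasciclin-like arabinogalactan proteins of the cell surface, had 2.07, 2.204 and 3.07 FPKM in val1 and 20.08, 22.1 and 18.8 FPKM in wild type (log2 difference -2.83 ± 0.39 (SE), adjusted p = 2.68e-06). FLA9, of the same family, had 2.45, 2.83 and 2.38 FPKM in val1 and 13.1, 16.4 and 7.85 FPKM in wild type (log2 difference -2.03 ± 0.26 (SE), adjusted p = 6.82e-07). The libraries of the genotypes were well apart for both genes. AT5G55750, a hydroxyproline-rich glycoprotein gene, had 6.50, 9.42 and 5.32 FPKM in val1 and 38.7, 53.6 and 18.0 FPKM in wild type (log2 difference -2.2 ± 0.28 (SE), adjusted p = 7.25e-07). GSTF9, a glutathione S-transferase, had 2.65, 4.01 and 3.84 FPKM in val1 and 24.2, 24.4 and 11.8 FPKM in wild type (log2 difference -2.31 ± 0.28 (SE), adjusted p = 2.01e-07). In both of these wild type replicate 3 was the lowest wild type library.

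ILA ranked first among the decreases, with 5.68, 5.16 and 6.83 FPKM in val1 and 56.5, 65.4 and 63.6 FPKM in wild type (log2 difference -3.29 ± 0.26 (SE), adjusted p = 1.9e-11), but the difference came from a single assembled form. That form, 573 bases long and not identical to an annotated transcript, had 0.737, 1.14 and 0.992 FPKM in val1 and 50.5, 60.6 and 57.6 FPKM in wild type. The main long form of ILA, 8603 bases, had 4.28, 3.65 and 4.91 FPKM in val1 and 5.399, 4.34 and 5.17 FPKM in wild type. The levels of the long form overlapped between genotypes, and with annotated forms alone ILA was not called (adjusted p = 1). ILA has roles in plant immunity and translational control, and its forms were not tested one by one.

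Among the other named decreases, AT1G36070, a WD40 repeat gene, had 1.26, 1.34 and 1.28 FPKM in val1 and 8.33, 8.29 and 11.0 FPKM in wild type (log2 difference -2.42 ± 0.18 (SE), adjusted p = 6.21e-12). LigB, of the aromatic ring-opening dioxygenase family, had 1.12, 1.63 and 1.35 FPKM in val1 and 7.46, 7.67 and 6.60 FPKM in wild type (log2 difference -2.06 ± 0.15 (SE), adjusted p = 2.19e-12). AT3G22850, an aluminium-induced protein gene, had 0.847, 1.05 and 1.81 FPKM in val1 and 6.79, 7.34 and 5.75 FPKM in wild type (log2 difference -2.07 ± 0.23 (SE), adjusted p = 4.5e-08). The rest of the 12 were AT5G04000 and AT5G57910 of unknown function (-2.55 and -2.43), the oxidoreductase gene ChlAKR (-2.34) and the late embryogenesis gene EM1 (-2.08), in log2 units.

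Promoters of the genes were searched for the RY core, CATGCA on either strand (TGCATG read on the opposite strand), in the 300 bases before the RefSeq gene start of assembly TAIR10.1, which was matched by locus tag. It was found in 164 of 978 promoters of genes higher in val1 (16.8%), in 49 of 555 promoters of lower genes (8.83%) and in 1712 of 17942 promoters of all genes tested (9.54%). Among higher genes that differed at least 2-fold it was in 90 of 388 promoters (23.2%). The longer palindrome CATGCATG, which holds the core on both strands and is counted in the shares above, was in 18 of the 978 promoters of higher genes (1.84%) and in 155 of all 17942 (0.864%). These shares are a description, and a match is not evidence of binding. Of the 12 named higher genes 5 held the core, and these 5 are printed below, 5′ to 3′ towards the gene start, with the core in capitals. They lie at chr1:27876605-27876904 (plus strand), chr2:13107283-13107582 (plus), chr2:8829772-8830071 (minus), chr1:1349479-1349778 (minus) and chr2:9884250-9884549 (plus).
AT1G74140: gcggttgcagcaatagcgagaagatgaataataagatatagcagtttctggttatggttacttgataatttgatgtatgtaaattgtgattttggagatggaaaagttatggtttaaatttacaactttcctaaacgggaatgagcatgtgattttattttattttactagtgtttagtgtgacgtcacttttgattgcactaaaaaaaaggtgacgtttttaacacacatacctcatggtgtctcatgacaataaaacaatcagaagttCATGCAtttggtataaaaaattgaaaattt
AT2G30766: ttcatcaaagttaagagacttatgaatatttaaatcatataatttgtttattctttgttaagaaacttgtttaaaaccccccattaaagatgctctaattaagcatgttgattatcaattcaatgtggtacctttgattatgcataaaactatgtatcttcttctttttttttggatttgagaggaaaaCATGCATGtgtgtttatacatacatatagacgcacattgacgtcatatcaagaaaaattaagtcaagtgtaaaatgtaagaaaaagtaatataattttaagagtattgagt
AT2G20470: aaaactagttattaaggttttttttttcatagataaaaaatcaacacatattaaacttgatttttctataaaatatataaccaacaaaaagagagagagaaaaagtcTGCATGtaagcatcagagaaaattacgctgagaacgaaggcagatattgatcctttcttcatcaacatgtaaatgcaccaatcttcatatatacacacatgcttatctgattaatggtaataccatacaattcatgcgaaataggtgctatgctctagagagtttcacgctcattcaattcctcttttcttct
AT1G04800: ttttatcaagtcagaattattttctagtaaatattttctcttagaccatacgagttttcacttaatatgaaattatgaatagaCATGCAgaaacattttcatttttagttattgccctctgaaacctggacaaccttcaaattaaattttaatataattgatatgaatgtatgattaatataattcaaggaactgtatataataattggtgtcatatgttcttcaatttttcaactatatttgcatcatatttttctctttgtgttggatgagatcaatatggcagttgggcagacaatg
CYP81D6: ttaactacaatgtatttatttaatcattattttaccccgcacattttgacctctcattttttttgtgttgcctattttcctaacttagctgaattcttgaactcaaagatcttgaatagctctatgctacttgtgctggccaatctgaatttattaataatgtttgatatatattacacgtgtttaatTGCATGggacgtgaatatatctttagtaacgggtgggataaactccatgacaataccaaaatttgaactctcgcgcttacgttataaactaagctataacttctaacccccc
AT2G30766 carries the full palindrome 109 bases before its start, and AT1G74140 carries the core nearest to its start, at 30 bases. AT5G55750 was the only one of the 12 named lower genes with a match, having the core at 2 places.

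The counts of the lists below stand against 5.42% higher and 3.1% lower among all genes tested by limma. Of 17 maturation regulators tested limma called 1 higher and limma-voom 2, and neither called any lower. An unadjusted p under 0.05 was seen for 3 genes, NF-YB6, LEC1 and ABI5. The list had a median log2 difference of -0.06, against 0.00 for all genes. NF-YB6, the closest relative of LEC1 and an activator of embryo genes, had 216, 263 and 244 FPKM in val1 and 67.6, 88.4 and 101 FPKM in wild type (log2 difference 1.503 ± 0.40 (SE), adjusted p = 0.0118). The genotypes did not overlap, but the call was lost without the unnumbered val1 library or wild type replicate 1 (adjusted p up to 0.0655). It was lost in 4 other alternatives too, among them the second quantification and the fit without both unnumbered day 12 libraries (adjusted p up to 0.109). FUS3 had 60.4, 61.6 and 56.7 FPKM in val1 and 73.2, 63.6 and 71.1 FPKM in wild type (log2 difference -0.21 ± 0.16 (SE), adjusted p = 0.513). ABI3 had 62.3, 75.5 and 68.4 FPKM in val1 and 87.0, 87.9 and 66.0 FPKM in wild type (log2 difference -0.22 ± 0.14 (SE), adjusted p = 0.412). Neither difference passed the test, and LEC1 reached no more than 0.637 FPKM in val1 and 0.225 FPKM in wild type (adjusted p = 0.0508). WRI1, the master regulator of oil synthesis, had 228, 216 and 228 FPKM in val1 and 207, 247 and 199 FPKM in wild type. The dormancy regulator DOG1 had 168, 191 and 175 FPKM in val1 and 226, 268 and 186 FPKM in wild type, and the groups overlapped for both.

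Among 16 genes of the VAL family, the Polycomb complexes and histone deacetylases, BMI1A and BMI1B were higher, VAL1 was lower and 13 did not pass the test, with a median log2 difference of 0.06. BMI1A and BMI1B encode RING-finger subunits of Polycomb repressive complex PRC1 that are known to act with VAL proteins. BMI1A had 28.1, 26.6 and 26.7 FPKM in val1 and 17.3, 16.0 and 18.8 FPKM in wild type (log2 difference 0.63 ± 0.13 (SE), adjusted p = 0.00142). BMI1B had 12.1, 11.8 and 11.1 FPKM in val1 and 6.46, 7.95 and 7.82 FPKM in wild type (log2 difference 0.62 ± 0.14 (SE), adjusted p = 0.00179). The genotypes did not overlap in either gene, although neither call held without scaling or in the second quantification (adjusted p = 0.17 and 0.206 at the highest). The PRC2 methyltransferase genes CLF and SWN and the deacetylase gene HDA19 had log2 differences of 0.12, 0.23 and 0.07, none called. FLC, the MADS-box repressor of flowering and a known VAL1 target in seedlings, had 195, 208 and 200.3 FPKM in val1 and 113, 124 and 119 FPKM in wild type (log2 difference 0.76 ± 0.12 (SE), adjusted p = 2.57e-05). It was the 1 of 9 tested flowering genes that passed (list median -0.14), its libraries did not overlap, and the 5 MAF relatives lay between -0.37 and 0.20.

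The storage products themselves showed no called difference in the seed storage and oil body lists. None of 13 storage protein genes passed the test (lowest adjusted p 0.78, none at an unadjusted p under 0.05), and their log2 differences ran from -0.32 to 0.11. CRU3, a 12S cruciferin, had 170800, 242400 and 152100 FPKM in val1 and 279100, 215800 and 97220 FPKM in wild type. Wild type replicate 3 was the lowest and wild type replicate 1 the highest of the 6 libraries, so wild type alone spanned the val1 range. None of 12 oil body protein genes passed (lowest adjusted p 0.107, 2 at an unadjusted p under 0.05), with a median of -0.18. Limma-voom also called none in either list. Of 32 genes of fatty acid and oil synthesis 2 were lower, the sucrose synthase gene SUS3 (log2 difference -0.81 ± 0.23 (SE), adjusted p = 0.0192) and the acyltransferase gene PDAT1 (log2 difference -0.57 ± 0.17 (SE), adjusted p = 0.0239), and none was higher (list median -0.03). Leaving out single libraries ended both calls in 3 and 4 of 6 cases.

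Genes of late maturation and desiccation moved in both directions. Of 27 LEA and desiccation genes 1 was higher and 2 were lower, with a median of 0.14. XERO1, a dehydrin, had 53.8, 42.0 and 37.7 FPKM in val1 and 14.8, 16.4 and 12.1 FPKM in wild type (log2 difference 1.59 ± 0.34 (SE), adjusted p = 0.00138). EM1, a group 1 LEA protein that accumulates late in the embryo, had 27.8, 42.8 and 10.2 FPKM in val1 and 142, 109 and 63.6 FPKM in wild type (log2 difference -2.08 ± 0.47 (SE), adjusted p = 0.00287). AT1G72100, a LEA domain gene, had 18.8, 18.6 and 13.0 FPKM in val1 and 54.7, 51.1 and 27.9 FPKM in wild type (log2 difference -1.34 ± 0.25 (SE), adjusted p = 0.000256). The genotypes did not overlap for these 3 genes, and EM1 lost its call without val1 replicate 3 (adjusted p = 0.061). The heat stress factor HSFA2 was the 1 of 9 tested heat shock genes that passed (list median 0.09), with 3.19, 2.87 and 3.25 FPKM in val1 and 7.71, 5.83 and 7.16 FPKM in wild type (log2 difference -1.03 ± 0.26 (SE), adjusted p = 0.00863). Its call was lost in 4 alternatives, among them no scaling and the second quantification (adjusted p up to 0.381). Of 16 cold and handling genes, with a median of -0.07, KIN1 and KIN2 were lower, but their libraries overlapped. KIN1 had 2.42, 5.91 and 1.18 FPKM in val1 and 3.17, 22.3 and 12.5 FPKM in wild type (log2 difference -1.71 ± 0.46 (SE), adjusted p = 0.0136). Leaving out single libraries ended the call of KIN1 in 4 of 6 cases and that of KIN2 in 3, among them the unnumbered wild type library (adjusted p = 0.182 for KIN1 and 0.186 for KIN2). Embryos of both genotypes were dissected on ice, and whether handling bears on these genes was not tested.

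**Figure D2:**
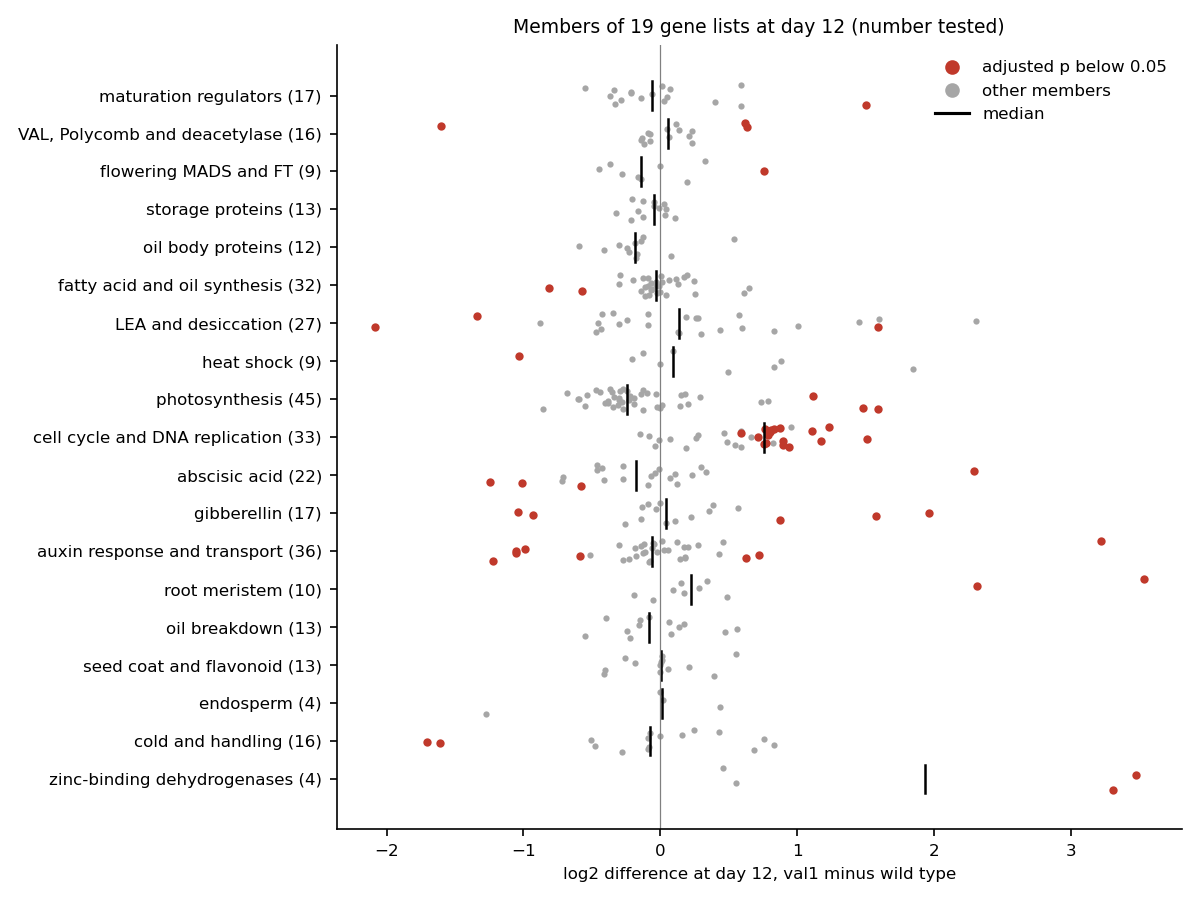
Log2 difference at day 12, val1 minus wild type, of every tested member of 19 gene lists, with the number tested in brackets. Points coloured red passed an adjusted p below 0.05 and the black bar is the list's median, which is 0.76 for the cell cycle list and between -0.25 and 0.25 for every other list except the zinc-binding dehydrogenases.

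Hormone genes gave a few large differences within lists whose medians stayed near 0. CYP707A2, which encodes the abscisic acid 8′-hydroxylase that breaks the hormone down in seeds, had 21.3, 18.5 and 13.9 FPKM in val1 and 3.08, 2.70 and 3.91 FPKM in wild type (log2 difference 2.29 ± 0.20 (SE), adjusted p = 3.56e-10). It was listed at 0 in every day 12 library of the second quantification, which gives no value for it. ABI2 and AHG1, protein phosphatases that dampen abscisic acid signalling, were lower. ABI2 had 2.50, 2.62 and 1.73 FPKM in val1 and 5.72, 6.34 and 3.48 FPKM in wild type (log2 difference -1.01 ± 0.18 (SE), adjusted p = 0.000185). AHG1 had 0.900, 0.885 and 0.317 FPKM in val1 and 2.65, 2.70 and 1.60 FPKM in wild type (log2 difference -1.25 ± 0.26 (SE), adjusted p = 0.0014). With ABA1, the zeaxanthin epoxidase of abscisic acid synthesis (log2 difference -0.58 ± 0.16 (SE), adjusted p = 0.0154), 1 of 22 abscisic acid genes was higher and 3 were lower (list median -0.18). ABA1 lost its call without val1 replicate 3 or wild type replicate 1 (adjusted p = 0.136 and 0.0819), and in the second quantification ABA1, ABI2 and AHG1 all lost theirs (adjusted p = 0.727, 0.0649 and 0.0569).

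In the gibberellin list 3 of 17 genes were higher and 2 lower, against 5.42% and 3.1% of all genes tested (list median 0.04). GA1, which encodes the enzyme of the first committed step of gibberellin synthesis, had 4.51, 3.99 and 3.47 FPKM in val1 and 0.687, 0.626 and 0.625 FPKM in wild type (log2 difference 1.96 ± 0.18 (SE), adjusted p = 8.64e-10). GA2OX8, which encodes an enzyme that inactivates gibberellins, had 10.3, 7.57 and 9.40 FPKM in val1 and 2.17, 3.26 and 2.71 FPKM in wild type (log2 difference 1.58 ± 0.39 (SE), adjusted p = 0.00605). GA1 of synthesis and GA2OX8 of inactivation were thus both higher in every val1 library, while 12 of the 17 genes were not called. RGL2, a DELLA repressor of germination, had 0.796, 1.43 and 1.04 FPKM in val1 and 2.95, 3.17 and 2.14 FPKM in wild type (log2 difference -1.04 ± 0.19 (SE), adjusted p = 0.000185).

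In the auxin list 3 of 36 genes were higher and 5 lower, against 5.42% and 3.1% of all genes tested (list median -0.06). AXR3, an Aux/IAA repressor of auxin response, had 44.2, 53.7 and 54.9 FPKM in val1 and 3.57, 7.21 and 4.73 FPKM in wild type (log2 difference 3.23 ± 0.32 (SE), adjusted p = 3.71e-09). The lowest val1 library held far more AXR3 than the highest wild type library, and AXR3 was called higher at all 7 ages. Other Aux/IAA genes went the other way: IAA4 (-1.22), IAA2 (-1.05), IAA16 (-1.05), IAA13 (-0.99) and IAA27 (-0.59) were lower, in log2 units, whereas IAA30 was higher (0.72). LAX1, an auxin influx carrier, was higher as well (log2 difference 0.63 ± 0.19 (SE), adjusted p = 0.0291), though its libraries overlapped.

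Root tip genes gave 2 higher members of 10 and none lower, against 5.42% and 3.1% of all genes tested (list median 0.23). RGF2, a peptide gene of the root meristem growth factor family, had 42.5, 47.4 and 35.2 FPKM in val1 and 2.48, 2.46 and 4.86 FPKM in wild type (log2 difference 3.53 ± 0.42 (SE), adjusted p = 1.33e-07). WOX5, the homeobox gene of the root quiescent centre, had 3.45, 2.86 and 1.80 FPKM in val1 and 0.187, 0 and 0.220 FPKM in wild type (log2 difference 2.32 ± 0.26 (SE), adjusted p = 3.47e-08). Neither gene overlapped between genotypes. The PLETHORA genes PLT1, PLT2 and PLT3, which maintain the root stem cells, had log2 differences of 0.28, 0.35 and -0.19, none called.

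In the cell cycle and DNA replication list 17 of 33 genes were called higher and none lower, against 5.42% higher among all genes tested, and the median log2 difference was 0.76 against 0.00. The list was drawn up with earlier results of these data known, so its share is no independent sign. TSO2, a small subunit of ribonucleotide reductase that supplies DNA precursors, had 3.80, 6.07 and 4.21 FPKM in val1 and 1.42, 1.09 and 1.37 FPKM in wild type (log2 difference 1.51 ± 0.21 (SE), adjusted p = 2.59e-06). PCNA1, the sliding clamp of DNA polymerase, had 1.42, 1.42 and 0.930 FPKM in val1 and 0.445, 0.238 and 0.0804 FPKM in wild type (log2 difference 1.23 ± 0.21 (SE), adjusted p = 6.59e-05). The genotypes did not overlap in either gene, nor in CDKB1;1, a mitotic cyclin-dependent kinase (log2 difference 1.18 ± 0.19 (SE), adjusted p = 3.62e-05), or CDKB2;1 (log2 difference 1.11 ± 0.26 (SE), adjusted p = 0.00486). CDKB2;1 lost its call without the unnumbered val1 library or wild type replicate 1 (adjusted p = 0.0608 and 0.0555), and with limma-voom (adjusted p = 0.0604). All these levels were low: the 17 genes averaged 0.664 to 10.6 FPKM in val1 and 0.181 to 5.85 FPKM in wild type, and TSO2 stood at 63.0 ± 8.85 FPKM in val1 and 65.6 ± 17.2 FPKM in wild type (SD, n = 3 each) at day 8. In wild type, 32 of the 33 genes fell between day 10 and day 13, an interval over which 27.8% of all genes tested were called lower. In bulk tissue fewer dividing cells and less transcript per cell cannot be told apart.

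The count rested heavily on the unnumbered libraries. The unnumbered val1 library was the highest of the 6 for 13 of the 17 genes. Without it 8 genes were called, without the unnumbered wild type library 10, and without both 3. The count was 7 with limma-voom on recovered reads, 10 in the second quantification and 4 from the 6 day 12 libraries alone, and in all of these no member was called lower. At day 13, in libraries that share none with day 12, 13 of the 33 genes were called higher in val1, where 10.7% of all genes tested were. At day 15 it was 3 of the 33, with 11.6% of all genes, and at day 10 none, with 3.48%. As the list was chosen with earlier results of this series known, the day 13 share is no independent sign either.

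The remaining lists gave few or no calls. None of 13 oil breakdown genes, 13 seed coat and flavonoid genes and 4 tested endosperm genes was called by limma or limma-voom, and 1, 2 and 1 of them had an unadjusted p under 0.05. Their medians were -0.08, 0.01 and 0.01. Of 45 photosynthesis genes RBCS1B, RBCS3B and PETE1 were higher and none lower, with a median of -0.24. PETE1 lost its call in 4 of 6 omissions of a single library (adjusted p = 0.353 without the unnumbered val1 library and 0.0707 without the unnumbered wild type library) and with limma-voom. RBCS3B lost it without either unnumbered library (adjusted p = 0.143 for val1 and 0.105 for wild type) and with limma-voom. RBCS1B lost it without val1 replicate 3 (adjusted p = 0.0738). In the second quantification none of the 3 was called (adjusted p = 0.0918 for PETE1, 0.619 for RBCS3B and 0.582 for RBCS1B). RBCS1B and RBCS3B reached no more than 2.76 FPKM in val1 and 0.426 FPKM in wild type and share 11.3% of their 75-base windows, so their reads may be divided between them. Of 4 tested zinc-binding dehydrogenase genes of the chosen group 2 were higher. AT5G16980 had 36.3, 38.2 and 41.4 FPKM in val1 and 2.71, 2.83 and 3.54 FPKM in wild type (log2 difference 3.48 ± 0.18 (SE), adjusted p = 9.63e-16). AT5G17000 had 17.2, 16.5 and 16.2 FPKM in val1 and 1.27, 1.25 and 1.16 FPKM in wild type (log2 difference 3.31 ± 0.14 (SE), adjusted p = 3.8e-18). The 2 genes share 0.836% of their windows and were called higher at all 7 ages. Like the other lists, this one was drawn up with results of these data known, so its share is no independent sign.

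Most day 12 differences were shared with day 13, whose libraries are separate. Of the 996 genes higher at day 12, 757 (76.0%) were also called higher at day 13, where they made up 38.4% of 1973 higher genes, and 459 (46.1%) at day 10, where they made up 71.7% of 640. Of the 570 lower genes, 431 (75.6%) were called lower at day 13 and 234 (41.1%) at day 10. At day 17 the shares were 26.6% and 26.3%, and 45 genes were called in the opposite direction there. The day 12 call was seen at no other age in either direction for 140 higher and 59 lower genes, and 58 higher and 28 lower genes were called at all 7.

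**Figure D3:**
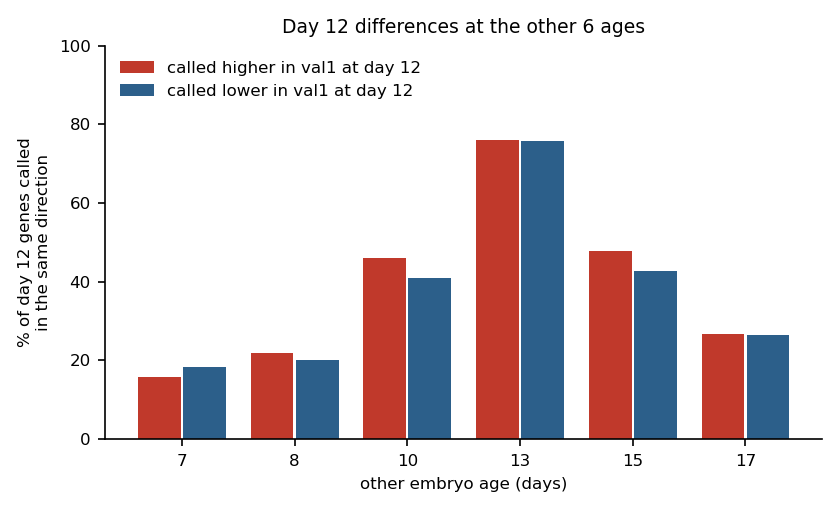
Share of the genes called higher in val1 at day 12 and of those called lower that were called in the same direction at each other age, in percent of 996 and 570 genes. The share peaks at day 13, at 76.0% and 75.6%, and is lowest at day 7, at 15.9% and 18.4%.

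A gene's day 12 difference was also set against the mean of its differences at the other 6 ages in the same fit. It departed upward for 94 genes and downward for 44, which is 0.511% and 0.239% of the genes tested. Of the 94, 90 were higher in val1 at day 12, and 84 of these 90 were called higher at day 13 too, 68 at day 10 and 13 at day 7. Of the 44, 36 were lower at day 12, and 26 of these were called lower at day 13 and 1 at day 7. These counts are of differences called in the same direction, since no departure was computed for another age. With limma-voom on recovered reads 17 genes departed upward and 16 downward, and of the 21 departures named here it called 4, those of AT1G47400, AT1G04800, TSO2 and AT5G57910.

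The largest upward departure was that of AT1G47400, which the annotation used here lists as an unknown protein. It had 27.98, 34.0 and 42.5 FPKM in val1 and 0, 0.780 and 0 FPKM in wild type at day 12 (log2 difference 5.67 ± 0.50 (SE), adjusted p = 3.28e-10). Its day 12 difference exceeded the mean of the other ages by 4.07 ± 0.55 log2 units (SE, adjusted p = 2.25e-05). It stood at 0.875 ± 1.46 FPKM in val1 and 0.173 ± 0.238 FPKM in wild type at day 10, at 51.2 ± 13.1 FPKM in val1 and 0.0402 ± 0.0696 FPKM in wild type at day 13 (SD, n = 3 each), and was listed at 0 in both genotypes at day 17. It was thus high in val1 embryos for a short time and hardly seen in wild type at any age.

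Genes of similar course included FRO3, a ferric-chelate reductase of the mitochondrion. FRO3 had 11.8, 20.0 and 16.5 FPKM in val1 and 0.376, 1.15 and 0.321 FPKM in wild type (log2 difference 3.94 ± 0.37 (SE), adjusted p = 1.04e-09), with a departure of 2.47 ± 0.40 (SE, adjusted p = 0.000341). AT2G14247, of unknown function, had 18.3, 27.8 and 20.07 FPKM in val1 and 0.742, 1.69 and 0.295 FPKM in wild type, with a departure of 3.08 ± 0.48 (adjusted p = 0.000195). Both peaked at days 12 and 13 in val1. AT2G30766 had 186, 267 and 209 FPKM in val1 and 1.81, 32.2 and 2.72 FPKM in wild type (log2 difference 5.13 ± 0.82 (SE), adjusted p = 2.88e-05). AT1G47395 had 66.7, 85.0 and 117 FPKM in val1 and 0.997, 10.5 and 1.92 FPKM in wild type (log2 difference 4.68 ± 0.67 (SE), adjusted p = 4.6e-06). In these 2 genes the unnumbered wild type library stood well above the other wild type libraries, and the departures were not called (adjusted p = 0.206 and 0.0518). AT1G47400 and AT1G47395 are neighbours on chromosome 1, and their genomic spans share no window of 75 bases.

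Because FRO3 was among them, 26 genes of iron uptake, transport and storage were listed after the values were seen, and no test of the list was made. AT1G47400, AT1G47395 and AT2G30766 were not in that list. Of the 26 genes 16 could be tested. FRO3, FRO2, BTS and MYB10 were higher, FER4 and FER2 were lower and 10 were not called, with a median log2 difference of 0.04. Among all genes tested 5.42% were higher and 3.1% lower, and a list chosen in this way gives no independent sign. FRO2, the ferric-chelate reductase of root iron uptake, had 1.76, 1.23 and 1.57 FPKM in val1 and 0.0415, 0.305 and 0.0104 FPKM in wild type (log2 difference 1.73 ± 0.21 (SE), adjusted p = 2.76e-07). FER4, a ferritin that stores iron, had 1.86, 2.63 and 1.11 FPKM in val1 and 9.04, 5.41 and 8.11 FPKM in wild type (log2 difference -1.78 ± 0.31 (SE), adjusted p = 0.000104). FER2, the ferritin of seeds, had 38.6, 24.7 and 22.04 FPKM in val1 and 84.0, 49.1 and 62.1 FPKM in wild type (log2 difference -1.19 ± 0.21 (SE), adjusted p = 0.000163). None of the 3 overlapped between genotypes, whereas FER1, FER3, the iron regulator PYE and the vacuolar iron transporter VIT1 did, with log2 differences of -0.28, 0.07, 0.17 and -0.13. IRT1, BHLH38, BHLH39, BHLH100 and BHLH101 did not reach the level needed for the test.

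**Figure D4:**
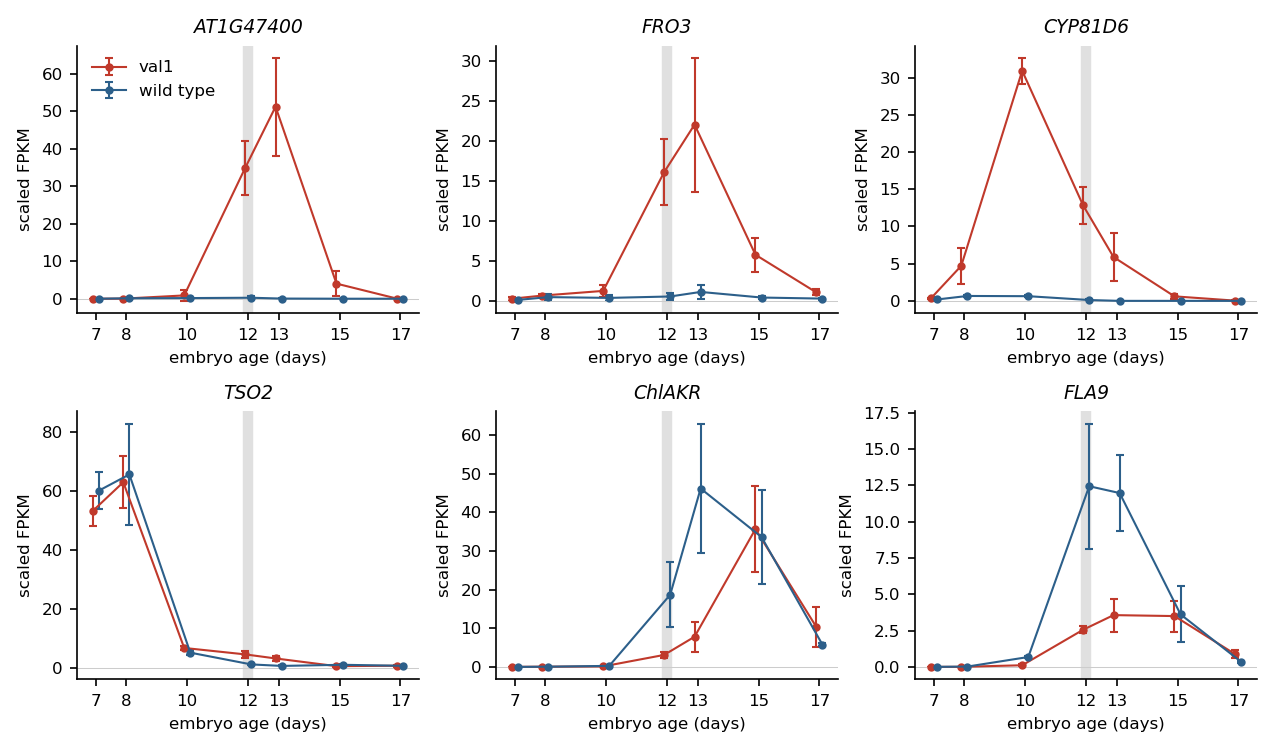
Scaled FPKM of 6 genes against embryo age in days, val1 in red and wild type in blue, as the mean and SD of 3 libraries (2 for wild type at day 17), with day 12 shaded. At day 12 the val1 mean stands above wild type in the first 4 panels (AT1G47400, FRO3, CYP81D6, TSO2) and below it in ChlAKR and FLA9, whose val1 and wild type means lie within 1 SD of each other at day 15.

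The downward departures included genes that wild type embryos switched on between days 10 and 13. ChlAKR had 3.69, 3.36 and 2.22 FPKM in val1 and 27.3, 18.24 and 10.4 FPKM in wild type at day 12, a departure of -1.999 ± 0.36 (SE, adjusted p = 0.00126). Its day 15 level was 35.6 ± 11.1 FPKM in val1 and 33.6 ± 12.2 FPKM in wild type (SD, n = 3 each). FLA9 departed by -1.71 ± 0.28 (SE, adjusted p = 0.000398) and stood at 3.49 ± 1.06 FPKM in val1 and 3.61 ± 1.92 FPKM in wild type at day 15. Both genes were called lower at days 12 and 13, FLA9 also at day 10 (log2 difference -0.95, adjusted p = 0.0204), and the genotype means lay within 1 SD of each other at day 15. AT5G57910 (-1.62), AT5G55750 (-1.56) and AT1G54575 (-1.53) were the other downward departures, in log2 units, named among genes reaching 5 FPKM in wild type without overlap. Genes below that level departed as far, AT3G58550 by -2.01 with a wild type mean of 2.66 FPKM at day 12.

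The day 12 differences were compared with the course of wild type development, taken as wild type day 13 minus wild type day 10, which uses no day 12 library. Over all genes tested 24.3% rose and 27.8% fell in wild type in that interval. Of the 996 genes higher in val1 at day 12, 155 (15.6%) rose and 454 (45.6%) fell in wild type. Of the 570 lower genes, 325 (57.0%) rose and 95 (16.7%) fell. The median wild type change was -0.30 log2 units for the higher genes and 0.65 for the lower genes, against -0.01 for all genes. EM1 rose by 7.61 log2 units in wild type in this interval and was lower in val1, TSO2 changed by -2.17 and was higher in val1, while CYP707A2 rose by 3.95 and was higher in val1. Genes near 0 in wild type at these ages, among them AT1G74140 and AT1G47400, can show no fall, since the pseudocount holds their wild type change near 0. Wild type replicate 3 had the lowest storage protein share, 38.4%, and whether its stage differed from the other libraries was not tested.

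**Figure D5:**
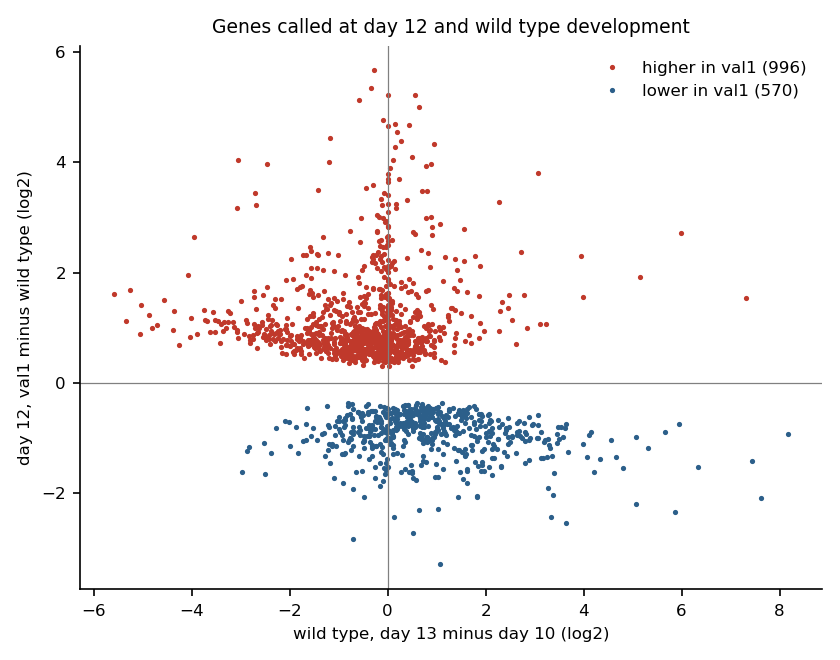
Log2 difference between val1 and wild type at day 12 (vertical axis) against the log2 change in wild type between day 10 and day 13 (horizontal axis) for the 1566 genes called at day 12, 996 higher and 570 lower. Higher genes lie mostly left of 0 and lower genes mostly right of it, with medians of -0.30 and 0.65; genes close to 0 FPKM in wild type are held near 0 on the horizontal axis by the pseudocount.

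The authors' deposited table of transcripts that passed their own test over the series was set beside these results. Of the 1566 genes called at day 12, 1444 had a transcript in the authors' deposited table, and 2109 of the 2111 transcripts of these genes had the same sign at day 12 there. The authors' deposited table gives day 12 log2 differences of -2.26 and -1.46 for the 2 forms of VAL1, 3.39 for AXR3 and -5.85 for the short form of ILA. It was made from the same libraries and is no independent evidence.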

How the data were processed

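RNA-seq libraries of val1 and wild type embryos were compared at day 12. The deposited FPKM per transcript were made by the authors with TopHat2 and StringTie on TAIR10, per the submitters' processing notes. A second deposited sheet, titled as counts, holds values that are not whole and lie on an FPKM scale. It served as an alternative. The authors' deposited table holds log2 differences per day and an F score with its p-value for each transcript below an adjusted p of 0.05; its test is not given in the sources used here, and only the signs and sizes of the differences were used.

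Transcripts matching an annotated gene (class codes = and j) were summed per gene, scaled by unweighted trimmed means of log ratios (30% and 5% trimmed) and kept at 1 FPKM or more in at least 2 libraries. Limma 3.58.1 (R 4.3.3) was fitted with a trend to log2(FPKM + 0.5) with all 14 group means, 27 residual degrees of freedom and Benjamini-Hochberg adjustment at 0.05. In FPKM, low values stepped in twelfths of a read within a tolerance of 0.02, which gave each library's depth and an alternative test by limma-voom on the recovered reads. The fit was tested on simulated data. Promoters were the 300 bases before RefSeq gene starts. Named genes were the 12 with the largest difference in each direction that reached 5 FPKM in the higher genotype without overlap, the 5 largest departures in each direction under the same limits, and up to 4 called members per list by size of difference, with every maturation and VAL list regulator open to naming. Others named were chosen after their values were seen. Members and lists were chosen with earlier results of these data known. Alternatives changed the pseudocount, filter, scaling, transcript classes, model, quantification and libraries.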

Additional observations from a re-analysis of the deposited data

Results flagged for a closer look

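For 21 of the genes named above, the difference between val1 and wild type at day 12 departed from the mean of the differences at the other 6 ages (limma, contrast within the fit of all ages, adjusted p below 0.05 over all genes). The sizes below are log2 units on the log2(FPKM + 0.5) scale, day 12 minus the mean of the other ages.

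Upward departures were seen for AT1G47400 (4.07), AT1G13609 (3.16), AT2G14247 (3.08), the lipase gene AT5G03820 (2.77), FRO3 (2.47), CYP81D6 (2.46), AT1G04800 (2.38), GLTP2 (1.75) and AT2G20470 (1.49). The cell cycle genes TSO2 (1.30), PCNA1 (1.16) and CDKB1;1 (1.05) and the hormone genes CYP707A2 (1.25) and GA1 (0.82) departed upward as well. GLTP2 and AT1G13609 were listed at 0 in wild type at day 12, so their values depend on the pseudocount. An upward departure does not mean that the val1 level was highest at day 12. CYP81D6 averaged 30.9 FPKM in val1 at day 10 and 12.8 FPKM at day 12. AT1G04800 averaged 16.2 FPKM in val1 at day 12 and 16.1 FPKM at day 13. In val1, AT1G47400, AT1G13609, FRO3 and CYP707A2 averaged more at day 13 than at day 12. GLTP2 was also called higher in val1 at days 8, 10, 13, 15 and 17.

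Downward departures were seen for LigB (-0.73), AT5G04000 (-1.49), AT1G54575 (-1.53), AT5G55750 (-1.56), AT5G57910 (-1.62), FLA9 (-1.71) and ChlAKR (-2.0). Of the 21 calls 19 were lost under at least 1 alternative, and those of AT1G47400 and AT1G04800 held under all that were run. With limma-voom on recovered reads 17 were lost, that of GA1 with a change of sign, and in the second quantification 10 were. Leaving out both unnumbered day 12 libraries ended those of AT5G03820, AT1G54575, TSO2, PCNA1, CYP707A2 and GA1. AT1G54575 lost its call under every omission of a single day 12 library, and GA1 and LigB under 5 and 4 of the 6. AT5G55750 lost it without the unnumbered wild type library (adjusted p = 0.0595).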

How the results depend on the processing

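Against 996 higher and 570 lower genes at day 12, the alternatives called totals, not subsets, of 602 higher from the 6 libraries alone, 563 higher and 226 lower in the second quantification, 535 and 348 without the unnumbered day 12 libraries, 572 and 333 without all replacement libraries, and 526 and 312 from numbered libraries without a block; 331 lower were called with a filter of 5 FPKM in 3 libraries, and 289 without scaling. Omitting single libraries gave 700 to 873 higher and 387 to 540 lower. Upward departures (94) numbered 154 without a filter, 47 at 5 FPKM, 58 without scaling, 17 by limma-voom and 37 from numbered libraries without a block (79 to 97 omitting single libraries). Downward departures (44) numbered 29 with a pseudocount of 0.1, 76 without a filter, 17 at 5 FPKM, 25 without scaling, 24 and 20 without day 12 or all replacements, 16 by limma-voom and 11 from numbered libraries (26 to 58 omitting single libraries). The 17 cell cycle calls became 4, 10, 3, 5, 7 and 3 with the day 12 libraries alone, the second quantification, without day 12 or all replacements, with limma-voom and with numbered libraries, and 8 to 21 omitting single libraries. The fits without all replacements and with numbered libraries unblocked were chosen after seeing the data. The cause of these changes was not tested. The departure of GA1 reversed, to -0.010, by limma-voom, and that of AT1G13609, to -0.027, in the second quantification, which gives no value for CLF, CYP707A2, EMF1, FRO2, LEC2 or MYB118.

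With a replicate block, the numbered libraries gave 1201 higher and 772 lower genes, 80 and 38 departures and 13 cell cycle calls, against 526 and 312, 37 and 11, and 3 for the same libraries unblocked. In fits of numbered libraries, here and above, departures were taken against the other ages without day 17, whose val1 libraries carry no number. Deviations of same-numbered libraries correlated at 0.0747 to 0.604 over 16 pairs (0.129 and 0.231 at day 12), over 0.1 in 15 of them, and 31 of 32 libraries correlated best with their own number. That is a hint from the data of something shared by number; no label states it and 1 pair fell short of 0.1 in the check used, so the unblocked fit was kept. Among the other values, 2744 kept direction and side of the threshold, 197 lost the call, 82 moved, 5 gained a call and 2 reversed. Depth limits genes near 1 FPKM.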

Other observations

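Genes called at all 7 ages, 58 higher and 28 lower, were looked at after their values were seen. ADF5, an actin-binding protein gene, had 41.7, 45.9 and 44.6 FPKM in val1 and 5.53, 6.54 and 6.31 FPKM in wild type at day 12. SWEET7, a sugar transporter gene, had 32.0, 25.2 and 32.0 FPKM in val1 and 3.33, 4.48 and 4.74 FPKM in wild type. In both, every val1 library exceeded every wild type library. Among the lower ones, NF-YA8, a subunit of the NF-Y transcription factor, had 0.0703, 0.202 and 0.173 FPKM in val1 and 3.82, 3.20 and 4.31 FPKM in wild type. OPR3, an enzyme of jasmonate synthesis, had 0.521, 0.992 and 1.30 FPKM in val1 and 2.53, 4.13 and 3.47 FPKM in wild type.

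Around VAL1 on chromosome 2, 10 of 169 genes tested within 500 kb on either side were higher at day 12 and 5 were lower, 8.88% of them, against 8.52% of all genes tested. The share was 11.1% of 72 genes within 200 kb and 10.3% of 320 within 1000 kb. Of the genes named above BMI1A lies 45.4 kb, AT2G30766 126 kb and GSTF9 157 kb from VAL1. Whether sequence linked to the val1 allele bears on these genes was not tested.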
